A study of Drosophila melanogaster with 12 samples.

Results

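CG43293, CR44029, Hexo1, CG34232, CG9328 and Karl are 6 genes picked for their levels in Drosophila S2 cells given RNA interference (RNAi) against the chromatin factors row and BEAF-32 together. They are 6 of the 16718 genes in the count table. The list is fixed by name: CG43293 and CR44029 because they were higher, and Hexo1, CG34232, CG9328 and Karl because they were lower, in cells with RNAi against both than in untreated cells. They were described as changed mainly with both, so their levels under RNAi against either factor alone were in view too. Values of double RNAi against control, and of double RNAi against either single RNAi, are therefore given below as a description. All 6 were found in the table, and all 6 passed the filter on low counts.

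S2 cells are a line derived from fly embryos that resembles plasmatocytes, the macrophage-like blood cells of the fly. RNA was measured by 3′ RNA-seq, in which oligo-dT priming places reads near the polyadenylated end of a transcript. There were 4 groups of 3 libraries: cells given double-stranded RNA (dsRNA) against both row and BEAF-32 (double RNAi), against row alone (row RNAi), against BEAF-32 alone (BEAF-32 RNAi), and untreated cells (control). In the dsRNA groups, per the labels' protocols, 4 µg of dsRNA was added per ml of cells, 8 µg per ml followed 2 days later, and the cells were harvested after another 2 days. The labels name no genotype, clone or further agent for any group, and no group received dsRNA against an unrelated sequence. The response to dsRNA as such and to loss of the targeted mRNA therefore cannot be told apart in any comparison with control. The amounts are the same for double and single RNAi, and the values used here do not say whether they are per dsRNA or in total. Double and single RNAi may thus also differ in dsRNA dose, which cannot be told apart there from the added target. Nothing in the labels says that the 3 libraries of a group came from separate cultures, so a p-value measures only the spread between these libraries, which may be technical. Changes are given as log2 fold changes of counts, with the standard error (SE). A gene is said to pass where the adjusted p of the edgeR quasi-likelihood test, by the Benjamini-Hochberg method over all 7377 tested genes, is under 0.05.

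ROW is a zinc finger protein found with the chromatin protein HP1c, which binds mainly euchromatin. BEAF-32, an insulator protein that binds DNA directly, is found near the start sites of many housekeeping genes and at the borders of chromatin domains. Of the 6 genes, Hexo1 encodes a β-N-acetylhexosaminidase, an enzyme that removes terminal N-acetylhexosamine sugars from glycans, and Karl encodes a lipocalin, one of a family of small secreted proteins that bind lipophilic molecules. CR44029 is annotated as an antisense non-coding RNA. CG43293, CG34232 and CG9328 are annotated as protein-coding and known here by their annotation numbers only. The 6 genes lie on 5 different chromosome arms or chromosomes: CG43293 and Hexo1 on 3L, CR44029 on 4, CG34232 on 2R, CG9328 on 2L and Karl on X.

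The libraries held 2276507 to 3963412 counts in all, and the lowest and the highest total both belonged to double RNAi. Levels are in CPM, which scales the counts of each library to the same total. The targeted mRNAs were still detected in every library. BEAF-32 mRNA averaged 29.9 ± 3.59 CPM in double RNAi, 59.2 ± 7.25 CPM in row RNAi and 21.0 ± 5.31 CPM in BEAF-32 RNAi, against 57.2 ± 12.6 CPM in control (SD, n = 3 each). The mRNA of row averaged 31.4 ± 5.15 CPM in double RNAi, 26.2 ± 5.99 CPM in row RNAi and 41.9 ± 5.05 CPM in BEAF-32 RNAi, against 50.7 ± 3.04 CPM in control (SD, n = 3 each). So row was at 61.9% of control in double RNAi and 51.7% in row RNAi, and BEAF-32 at 52.3% in double RNAi and 36.7% in BEAF-32 RNAi. Against control, BEAF-32 passed in double RNAi (log2 -0.93, SE 0.22, adjusted p = 0.0322 in edgeR) and in BEAF-32 RNAi (log2 -1.44, SE 0.22, adjusted p = 0.000177 in edgeR). The row mRNA passed in row RNAi (log2 -0.95, SE 0.22, adjusted p = 0.0379 in edgeR) but not in double RNAi (log2 -0.71, SE 0.22, adjusted p = 0.202 in edgeR). Both targets had a higher mean in double RNAi than in their own single RNAi. Those differences did not pass in edgeR (log2 0.25, SE 0.23, adjusted p = 0.935 for row, and log2 0.51, SE 0.23, adjusted p = 0.57 for BEAF-32). Among 10 plasmatocyte markers 9 were tested, while NimC1 had 14 counts over the 12 libraries. The summed level of the 10 ran from 1678 to 1962 CPM in double RNAi, 1911 to 2041 CPM in row RNAi and 1752 to 1943 CPM in BEAF-32 RNAi, against 2062 to 2137 CPM in control. Among them Glt passed in double RNAi against control (log2 -0.64, SE 0.13, adjusted p = 0.0066 in edgeR), in row RNAi against control (log2 -0.61, SE 0.13, adjusted p = 0.0132 in edgeR) and in row RNAi against BEAF-32 RNAi (log2 -0.53, SE 0.13, adjusted p = 0.0467 in edgeR). The marker He averaged 24.9 CPM in double RNAi, 9.89 CPM in row RNAi and 62.0 CPM in BEAF-32 RNAi, against 38.2 CPM in control. It passed in row RNAi against control (log2 -1.96, SE 0.39, adjusted p = 0.0484 in edgeR) and in row RNAi against BEAF-32 RNAi (log2 -2.65, SE 0.39, adjusted p = 0.00185 in edgeR). Of 7 lamellocyte markers (another fly blood cell type) 5 were tested, and the summed level ran from 759 to 905 CPM in double RNAi, 724 to 858 CPM in row RNAi and 693 to 796 CPM in BEAF-32 RNAi, against 663 to 675 CPM in control. One of them, shot, passed in double RNAi against control (log2 0.63, SE 0.13, adjusted p = 0.0114 in edgeR). Another, atilla, a defining marker of these cells, had 5 counts in the 12 libraries. PPO3 averaged 38.6 CPM in double RNAi, 46.1 CPM in row RNAi and 34.5 CPM in BEAF-32 RNAi, against 26.0 CPM in control. In row RNAi against control PPO3 did not pass (log2 0.83, SE 0.22, adjusted p = 0.135 in edgeR), while DESeq2 called it there. The log2 changes against control of all 5 tested markers were above 0 in each dsRNA group. Of 3 crystal cell markers PPO1 and lz had 0 counts, while PPO2 had 129 counts in the 12 libraries, with 2.43 CPM in double RNAi, 3.64 CPM in row RNAi and 5.84 CPM in BEAF-32 RNAi, against 3.01 CPM in control. Besides PPO2, the germline markers bam and aub (2 of 4 tested) and the neuron markers elav and Syt1 (2 of 4 tested) gave log2 changes of -0.21, -0.35, 0.03 and -0.32 in double RNAi against control. Of these 5 genes 0 were called by edgeR, DESeq2 or limma-voom in double RNAi against control and 0 at an unadjusted p under 0.05. The part of these markers in the levels of the 6 genes was not tested.

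CG43293 was the gene with the largest difference among the 6. Its level was 21.7, 19.8 and 20.9 CPM in the 3 double RNAi libraries (49, 47 and 87 counts). It was 12.3, 13.4 and 17.3 CPM in the row RNAi libraries and 4.77, 9.68 and 13.9 CPM in the BEAF-32 RNAi libraries, against 4.56, 3.75 and 4.87 CPM in the control libraries (12, 12 and 14 counts). All 3 double RNAi libraries were above every other library, and all 3 row RNAi libraries were above every control library. BEAF-32 RNAi was spread widely: its replicate 1 lay within the control range and its replicate 3 within the row RNAi range. The group means were 473% of control in double RNAi, 327% in row RNAi and 215% in BEAF-32 RNAi. In these bulk libraries a larger share of cells with the transcript and more transcript per cell cannot be told apart.

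CR44029, the antisense RNA, was also higher in every dsRNA group. Its level was 19.05, 24.0 and 14.4 CPM in the double RNAi libraries, 13.7, 6.89 and 5.56 CPM in the row RNAi libraries and 17.5, 11.2 and 9.37 CPM in the BEAF-32 RNAi libraries, against 4.18, 4.68 and 5.21 CPM in the control libraries. The counts behind these values were 43, 57 and 60 in double RNAi and 11, 15 and 15 in control. Each of the 9 dsRNA libraries was above all 3 control libraries. The lowest double RNAi library lay inside the range of BEAF-32 RNAi, and row RNAi and BEAF-32 RNAi overlapped. The group means were 408% of control in double RNAi, 185% in row RNAi and 271% in BEAF-32 RNAi.

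Hexo1, the hexosaminidase gene, was lowest in double RNAi and close to control in BEAF-32 RNAi. Its level was 9.74, 18.9 and 11.5 CPM in the double RNAi libraries, 20.6, 17.6 and 20.4 CPM in the row RNAi libraries and 21.5, 27.2 and 33.3 CPM in the BEAF-32 RNAi libraries, against 30.7, 33.1 and 28.2 CPM in the control libraries. Double RNAi did not overlap BEAF-32 RNAi or control, but its replicate 2 lay within the row RNAi range. Row RNAi in turn lay below BEAF-32 RNAi and control in all its libraries. The group means were 43.7% of control in double RNAi, 63.7% in row RNAi and 89.1% in BEAF-32 RNAi.

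CG34232 had 24.8, 32.0 and 38.8 CPM in the double RNAi libraries, 42.6, 40.7 and 54.7 CPM in the row RNAi libraries and 48.9, 52.8 and 37.1 CPM in the BEAF-32 RNAi libraries, against 91.9, 46.9 and 57.0 CPM in the control libraries. The double RNAi libraries were below all row RNAi and control libraries, and overlapped BEAF-32 RNAi. The control range was wide, since replicate 1 stood well above its other two libraries, and both single RNAi groups overlapped control. The group means were 48.9% of control in double RNAi, 70.5% in row RNAi and 70.9% in BEAF-32 RNAi.

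CG9328 had 24.4, 33.3 and 31.4 CPM in the double RNAi libraries, 62.6, 43.1 and 36.8 CPM in the row RNAi libraries and 51.3, 54.0 and 42.3 CPM in the BEAF-32 RNAi libraries, against 47.8, 60.6 and 61.9 CPM in the control libraries. It was the only one of the 6 genes in which double RNAi was apart from the other 3 groups while neither single RNAi group was apart from control. The group means were 52.3% of control in double RNAi, 83.7% in row RNAi and 86.7% in BEAF-32 RNAi.

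Karl, the lipocalin gene, had by far the most counts of the 6, with 1124 to 2059 per double RNAi library and 1582 to 2122 per control library, and the smallest difference. Its level was 498, 494 and 494 CPM in the double RNAi libraries, 516, 535 and 502 CPM in the row RNAi libraries and 610, 570 and 580 CPM in the BEAF-32 RNAi libraries, against 665, 663 and 550 CPM in the control libraries. Double RNAi lay below every other library, by a small margin over row RNAi, and row RNAi lay below BEAF-32 RNAi and control. BEAF-32 RNAi overlapped control. The group means were 79.1% of control in double RNAi, 82.7% in row RNAi and 93.8% in BEAF-32 RNAi.

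**Figure D1:**
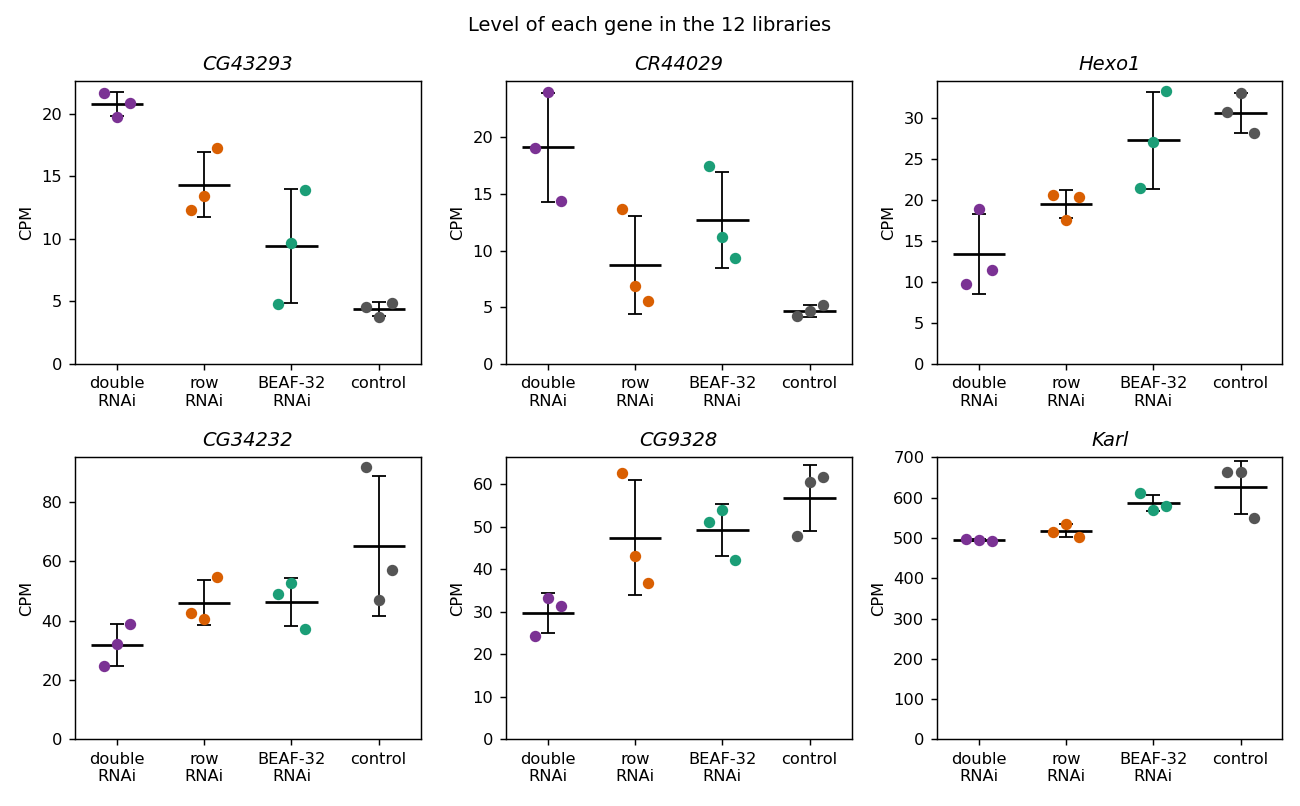
Level of each of the 6 genes in CPM (y axis, starting at 0) in double RNAi, row RNAi, BEAF-32 RNAi and control; points are the 3 libraries of a group, the thick line their mean and the whiskers the SD. The single RNAi groups lie mostly between double RNAi and control, and CG9328 is the gene whose single RNAi libraries both overlap control while double RNAi stands apart.

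Ordered by mean, the groups followed double RNAi, row RNAi, BEAF-32 RNAi and control for 5 of the 6 genes, from high to low for CG43293 and from low to high for Hexo1, CG34232, CG9328 and Karl. The exception was CR44029, where BEAF-32 RNAi came next to double RNAi. Neighbouring groups in this order often did not differ beyond their spread. Double RNAi and the group next to it overlapped for CR44029 and Hexo1, row RNAi and BEAF-32 RNAi overlapped for CG43293, CR44029, CG34232 and CG9328, and the group next to control overlapped control for all but CR44029.

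Against control, the log2 change of CG43293 was 2.24 (SE 0.41) in double RNAi, 1.71 (SE 0.42) in row RNAi and 1.11 (SE 0.43) in BEAF-32 RNAi. That of CR44029 was 2.01 (SE 0.43) in double RNAi, 0.88 (SE 0.45) in row RNAi and 1.42 (SE 0.44) in BEAF-32 RNAi. These 3 comparisons share the 3 control libraries and are not independent of each other. The log2 change of Hexo1 was -1.20 (SE 0.29) in double RNAi, -0.65 (SE 0.28) in row RNAi and -0.16 (SE 0.27) in BEAF-32 RNAi. That of CG34232 was -1.01 (SE 0.22) in double RNAi, -0.50 (SE 0.21) in row RNAi and -0.49 (SE 0.21) in BEAF-32 RNAi. For these genes each single RNAi value had the sign of the double RNAi value. The log2 change of CG9328 was -0.93 (SE 0.21) in double RNAi, -0.26 (SE 0.20) in row RNAi and -0.21 (SE 0.20) in BEAF-32 RNAi, and both single values were near their SE. That of Karl was -0.34 (SE 0.08) in double RNAi, -0.27 (SE 0.08) in row RNAi and -0.09 (SE 0.08) in BEAF-32 RNAi, so that row RNAi gave most of the size seen in double RNAi.

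All 6 genes were among the 20 that passed in double RNAi against control (4 higher and 16 lower, 0.271% of the 7377 tested genes), which is the comparison that chose them. Their ranges were also separate there, meaning that all 3 libraries of one group lay above or below all 3 of the other, for 6 of 6 genes and for 13.1% of all tested genes. Nearest the threshold inside it were Hexo1 (adjusted p = 0.0398 in edgeR) and Karl (adjusted p = 0.0419), and nearest outside it was CG4398 (log2 -0.86, adjusted p = 0.078). In row RNAi against control, edgeR called 0 of the 6 and 0.19% of all genes. At an unadjusted p under 0.05 there were 4 of the 6, and 423 of all tested genes (5.73%). DESeq2 called CG43293 alone of the 6 and 22 genes in all, while limma-voom called 0 of the 6. CG43293 had an adjusted p of 0.0592 in edgeR in that comparison, and 0.0409 with no filter on low counts. Ranges were separate for 4 of the 6 in row RNAi against control (CG43293, CR44029, Hexo1 and Karl), and for 11.8% of all genes. In BEAF-32 RNAi against control, edgeR, DESeq2 and limma-voom each called 0 of the 6, with 3 of the 6 and 382 of all tested genes (5.18%) at an unadjusted p under 0.05. EdgeR called 0.0271% of all genes there, and ranges were separate for 1 of the 6 (CR44029) and for 10.2% of all genes.

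**Figure D2:**
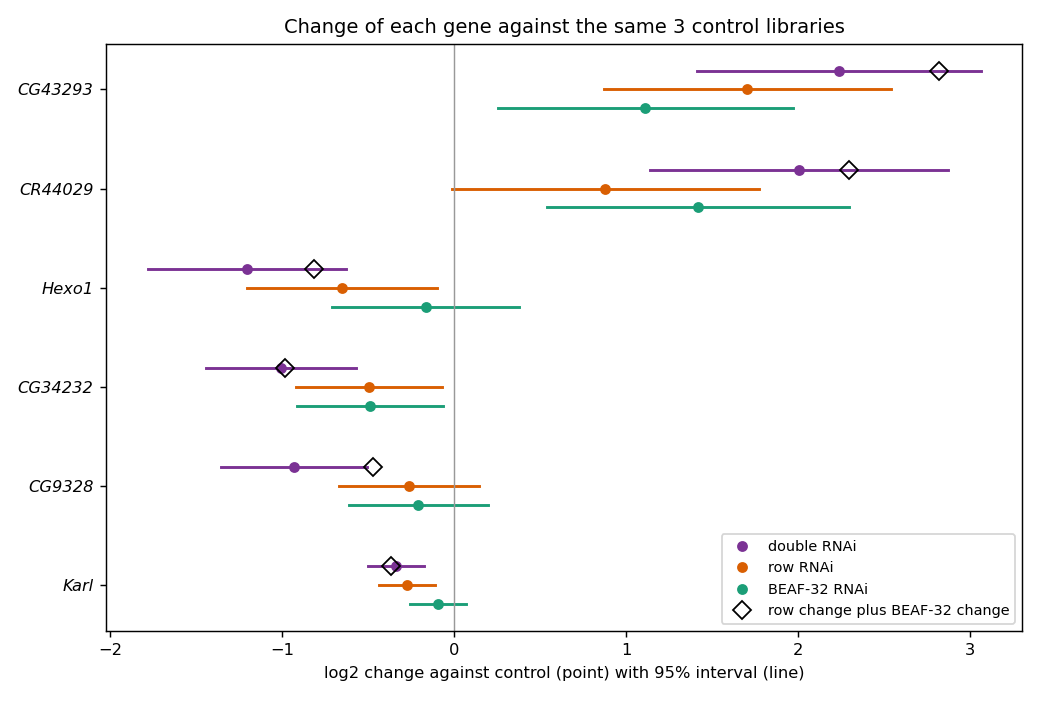
Log2 change against control (x axis) of each gene in double RNAi, row RNAi and BEAF-32 RNAi, as points with 95% intervals; the open diamond is the row change plus the BEAF-32 change. All 3 comparisons use the same 3 control libraries. The diamond lies inside the double RNAi interval for 5 of the 6 genes, and just outside it for CG9328 (-0.47).

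The name given to the list says that these genes changed mainly in double RNAi, and the libraries bear this out only in part. In double RNAi against row RNAi the log2 difference was 0.53 (95% interval -0.20 to 1.27) for CG43293 and 1.12 (0.32 to 1.93) for CR44029. It was -0.56 (-1.14 to 0.03) for Hexo1, -0.51 (-0.95 to -0.07) for CG34232, -0.67 (-1.09 to -0.25) for CG9328 and -0.06 (-0.23 to 0.10) for Karl. The intervals of CG43293, Hexo1 and Karl thus include 0. They are set gene by gene, without adjustment for the number of genes, and the genes were chosen on the double RNAi libraries. EdgeR called 0 of the 6 in double RNAi against row RNAi and 0 of all tested genes (0%), as did DESeq2 and limma-voom, with 3 of the 6 and 458 of all tested genes (6.21%) at an unadjusted p under 0.05. Ranges were separate for 5 of the 6 (all but Hexo1) and for 12.2% of all genes.

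In double RNAi against BEAF-32 RNAi the log2 difference was 1.12 (95% interval 0.36 to 1.88) for CG43293, 0.59 (-0.20 to 1.38) for CR44029 and -1.04 (-1.62 to -0.46) for Hexo1. It was -0.52 (-0.96 to -0.07) for CG34232, -0.72 (-1.15 to -0.30) for CG9328 and -0.25 (-0.41 to -0.08) for Karl. CR44029 was the gene whose interval included 0. EdgeR, DESeq2 and limma-voom called 0 of the 6 in this comparison, with 5 of the 6 and 562 of all tested genes (7.62%) at an unadjusted p under 0.05, while edgeR called 0.122% of all genes. DESeq2 gave CG43293 no adjusted p here, so it left that gene undecided. Ranges were separate for 4 of the 6 (all but CR44029 and CG34232) and for 12.2% of all genes.

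The change in double RNAi was also set against the sum of both single changes, on the log2 scale. The mean levels of the targets were not alike in these groups. Their differences did not pass after adjustment, while the unadjusted 95% interval of BEAF-32 (0.05 to 0.98) excluded 0. The row mRNA was at 61.9% of control in double RNAi and 51.7% in row RNAi. BEAF-32 was at 52.3% in double RNAi and 36.7% in BEAF-32 RNAi. The part of this and of the dsRNA dose in the departures from the sum was not tested. For CG43293 the sum was 2.82 and the double RNAi change lay below it by -0.58 (95% interval -1.71 to 0.54), and for CR44029 the sum was 2.30 and the difference -0.29 (-1.48 to 0.89). For Hexo1 the sum was -0.81 and the difference -0.39 (-1.19 to 0.41), and for CG9328 the sum was -0.47 and the difference -0.46 (-1.05 to 0.12). For CG34232 the sum was -0.98 and the difference -0.02 (-0.63 to 0.59), and for Karl the sum was -0.37 and the difference 0.03 (-0.20 to 0.26). All 6 intervals included 0. They were widest for CG43293 and CR44029. EdgeR, DESeq2 and limma-voom called 0 of the 6 for this interaction and 0 of all tested genes (0%). At an unadjusted p under 0.05 in edgeR there were 0 of the 6 and 326 of all tested genes (4.42%). With a share this low, 0 of 6 does not set the genes apart from others.

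Row RNAi against BEAF-32 RNAi uses neither the double RNAi nor the control libraries. The single RNAi levels were in view when the genes were chosen, so this comparison is not wholly independent of the choice either. CG43293 was higher by 0.59 on the log2 scale in row RNAi (95% interval -0.18 to 1.36, adjusted p = 0.773 in edgeR). CR44029 had a difference of -0.54 (-1.36 to 0.28, adjusted p = 0.818 in edgeR). Hexo1 had a difference of -0.48 (-1.04 to 0.07, adjusted p = 0.71 in edgeR), with all 3 row RNAi libraries below all 3 BEAF-32 RNAi libraries. CG34232 had -0.01 (-0.44 to 0.42, adjusted p = 0.997 in edgeR) and CG9328 had -0.05 (-0.46 to 0.36, adjusted p = 0.98 in edgeR). The interval of Karl, -0.18 (-0.34 to -0.02, adjusted p = 0.605 in edgeR), excluded 0, with all 3 row RNAi libraries below all 3 BEAF-32 RNAi libraries. EdgeR, DESeq2 and limma-voom called 0 of the 6, while edgeR called 25 genes or 0.339% of all tested genes. At an unadjusted p under 0.05 there was 1 of the 6, Karl, and 543 of all tested genes (7.36%). Ranges were separate for 2 of the 6 and for 13.2% of all genes.

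**Figure D3:**
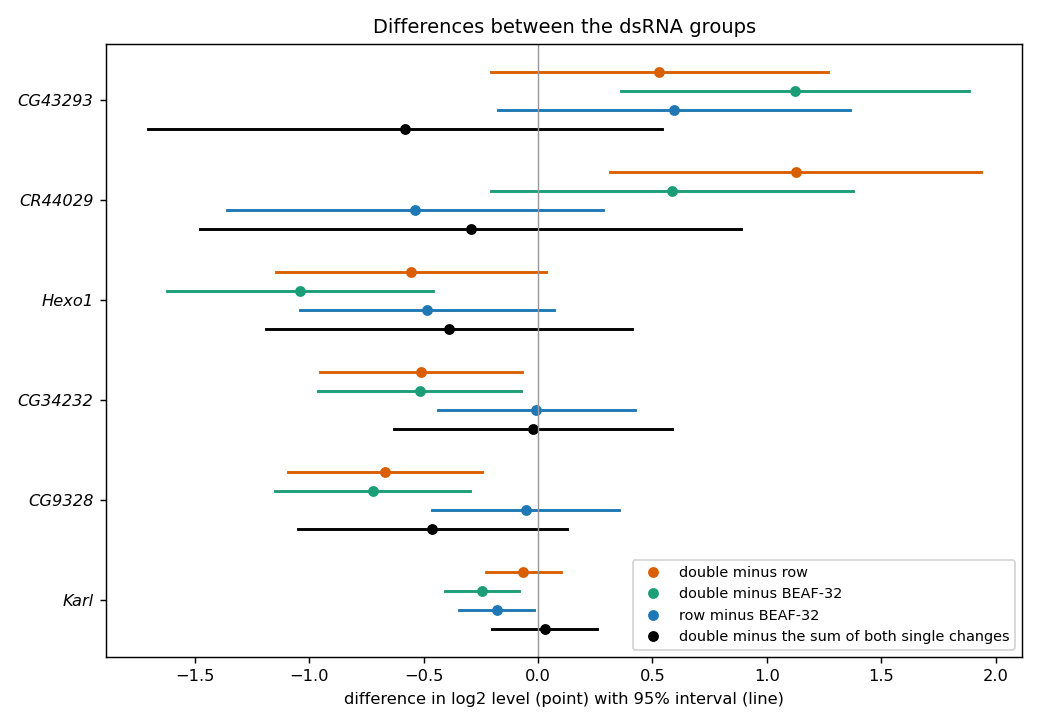
Difference in log2 level (x axis) for each gene between double RNAi and row RNAi, double RNAi and BEAF-32 RNAi, and row RNAi and BEAF-32 RNAi, and between the double RNAi change and the sum of both single changes, as points with 95% intervals. The interval of the last of these includes 0 for all 6 genes, from -1.71 to 0.54 for CG43293 to -0.20 to 0.26 for Karl.

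The other 14 genes called in double RNAi against control were set beside these 6. The 14 include BEAF-32, itself a dsRNA target, which had the largest difference between double RNAi and row RNAi among them (log2 -0.98). BEAF-32 was also among those called in BEAF-32 RNAi against control, where its own mRNA was targeted. The size of the log2 difference between double RNAi and row RNAi had a median of 0.54 (0.06 to 1.12) over the 6 genes and 0.34 (0.02 to 0.98) over the other 14. Between double RNAi and BEAF-32 RNAi it had a median of 0.65 (0.25 to 1.12) over the 6 and 0.50 (0.26 to 1.84) over the other 14, and the departure from the sum of both single changes had a median of 0.34 (0.02 to 0.58) over the 6 and 0.29 (0.0026 to 0.72) over the other 14. These ranges overlap throughout. Calls by edgeR ran otherwise, with no test of the difference: 0 of the 6 and 6 of the 14 were called in row RNAi against control, 0 of the 6 and 2 of the 14 in BEAF-32 RNAi against control, and 0 of the 6 and 5 of the 14 in double RNAi against BEAF-32 RNAi. The genes were chosen as changed mainly in double RNAi, so their lack of calls in the single RNAi groups is part of how they were picked. Of the other 14 the 3 with the largest change were CG15209, CG14527 and CG4210. CG15209 averaged 11.2 CPM in double RNAi, 7.47 CPM in row RNAi and 40.3 CPM in BEAF-32 RNAi, against 34.6 CPM in control, and so was low wherever row dsRNA was given. CG4210 averaged 19.3 CPM in double RNAi, 32.8 CPM in row RNAi and 14.5 CPM in BEAF-32 RNAi, against 41.8 CPM in control, and was lowest where BEAF-32 dsRNA was given alone. CG14527 averaged 10.4 CPM in double RNAi, 19.02 CPM in row RNAi and 13.2 CPM in BEAF-32 RNAi, against 32.1 CPM in control, an order like that of CR44029 but downward.

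How often the calls in double RNAi against control held in other fits differed between the genes. This comparison chose the genes, so these counts describe the fits and are no support for the genes. CG43293 was called in all 13 alternatives (other scalings, filters and tests, a replicate block, and leaving out each double RNAi or control library in turn), CG34232 in 9, CR44029 in 8, CG9328 in 7, Hexo1 in 6 and Karl in 4. With limma-voom, CG43293 was the one gene of the 6 that was called. Without control replicate 1 the log2 change of CG34232 was -0.68 (adjusted p = 0.36 in edgeR), and it also missed the threshold without double RNAi replicate 1 or 2. Without control replicates 1, 2 and 3 the log2 change of CR44029 was 1.93, 2.00 and 2.08 (SE 0.49 to 0.50). In the main fit it was 2.01 (SE 0.43). CR44029 missed the threshold in each of these fits without a control library, and without double RNAi replicate 2 (adjusted p up to 0.143 in edgeR). CG9328 missed it without control replicate 2 or 3 or any one double RNAi library (adjusted p up to 0.189 in edgeR), Hexo1 without any one control library or double RNAi replicate 1 or 3 (up to 0.201), and Karl without control replicate 1 or 2 or any one double RNAi library (up to 0.291). Hexo1 and Karl also missed it when scaled by library totals alone (adjusted p = 0.0614 and 0.0909 in edgeR). Over all tested genes, edgeR called 17, 15 and 9 without control replicates 1, 2 and 3. Without double RNAi replicates 1, 2 and 3 it called 23, 10 and 12, against 20 in the main fit. The part of the smaller groups in these misses was not tested. Some values moved by over 1.5 times with 1 library. The log2 change of CR44029 in row RNAi against control was 0.40 without row RNAi replicate 1. That of CG43293 in BEAF-32 RNAi against control was 0.74 without BEAF-32 RNAi replicate 3. Without control replicate 1, the change of CG34232 was -0.17 in row RNAi and -0.16 in BEAF-32 RNAi. The change of CG9328 in row RNAi against control was -0.51 when row RNAi replicate 1 was left out and -0.10 when replicate 3 was, and its difference between double RNAi and row RNAi was -0.42 without row RNAi replicate 1. That of Hexo1 was -0.86 without double RNAi replicate 2. In BEAF-32 RNAi against control, where the changes were small, leaving out 1 library gave -0.31 to -0.11 for CG9328, -0.33 to -0.02 for Hexo1 and -0.18 to -0.05 for Karl.

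The annotation gave 4 of the 6 genes an overlapping partner on the opposite strand, with exons that overlap. The sources used here do not say whether strand entered the counting, so reads of a gene and its antisense partner may not have been told apart, and the counts of these 4 genes are uncertain to that extent. CR44029 lies within unc-13, which encodes a protein that primes synaptic vesicles for release. While CR44029 averaged 19.1 CPM in double RNAi and 4.69 CPM in control, unc-13 averaged 83.7 CPM in double RNAi, 78.1 CPM in row RNAi and 75.2 CPM in BEAF-32 RNAi, against 74.0 CPM in control (log2 0.18, SE 0.15, adjusted p = 0.831 in edgeR for double RNAi against control). CG43293 overlaps D19A, a zinc finger gene, which averaged 21.2 CPM in double RNAi, 22.0 CPM in row RNAi and 21.7 CPM in BEAF-32 RNAi, against 28.2 CPM in control. Its log2 change in double RNAi was -0.38 (SE 0.31, adjusted p = 0.806 in edgeR), opposite in sign to that of CG43293. Hexo1 overlaps CG15012, which averaged 159 CPM in double RNAi, 168 CPM in row RNAi and 174 CPM in BEAF-32 RNAi, against 171 CPM in control (log2 -0.10, SE 0.11, adjusted p = 0.875 in edgeR for double RNAi against control). Karl holds an antisense RNA, CR44962, which had 55 counts over the 12 libraries and was not tested. CG34232 and CG9328 overlap no annotated gene.

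The nearest genes on each side were also compared. The study's title speaks of long-range genes, on which nearest neighbours do not bear, since no distances or contacts were used here. Among the 5 nearest tested genes on each side of each gene, 60 in all, edgeR called 0 in each of the 7 comparisons, with 1 to 8 of the 60 at an unadjusted p under 0.05. Over all tested genes edgeR called 0% to 0.339%, and 4.42% to 8.63% had an unadjusted p under 0.05. With shares of calls this low, 0 of 60 does not set the neighbours apart from other genes. Limma-voom called 0 of the 60 as well, and DESeq2 called 1, CG10274 in row RNAi against control. In double RNAi against control 8 of the 60 had an unadjusted p under 0.05 (13.3%, against 8.63% of all tested genes). Their log2 changes had a median of 0.02, with a range from -2.02 for sphinx to 1.48 for CG8407, and the median size was 0.13, against 0.18 over all tested genes. Next to CG43293 lay D19B, a zinc finger gene (log2 -0.06 in double RNAi against control), and CG7386 (0.75, SE 0.57). Next to CR44029 lay CG11148 (-0.01) and 4E-T, which encodes a partner of the cap-binding protein eIF4E (-0.13). Next to Hexo1 lay TfIIEbeta, a general transcription factor gene (0.05), and Fdx2 (-0.11), and next to Karl lay m (-1.20, SE 0.88, with 1.89 CPM in double RNAi and 4.20 CPM in control) and CkIIbeta, a kinase subunit gene (-0.03). Next to CG34232 lay the splicing factor gene Prp8 (-0.02) and Oda, the antizyme of ornithine decarboxylase (0.65, SE 0.28, adjusted p = 0.56 in edgeR). Next to CG9328 lay vari (0.06) and CG9331 (-0.49, SE 0.22, adjusted p = 0.511 in edgeR).

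**Figure D4:**
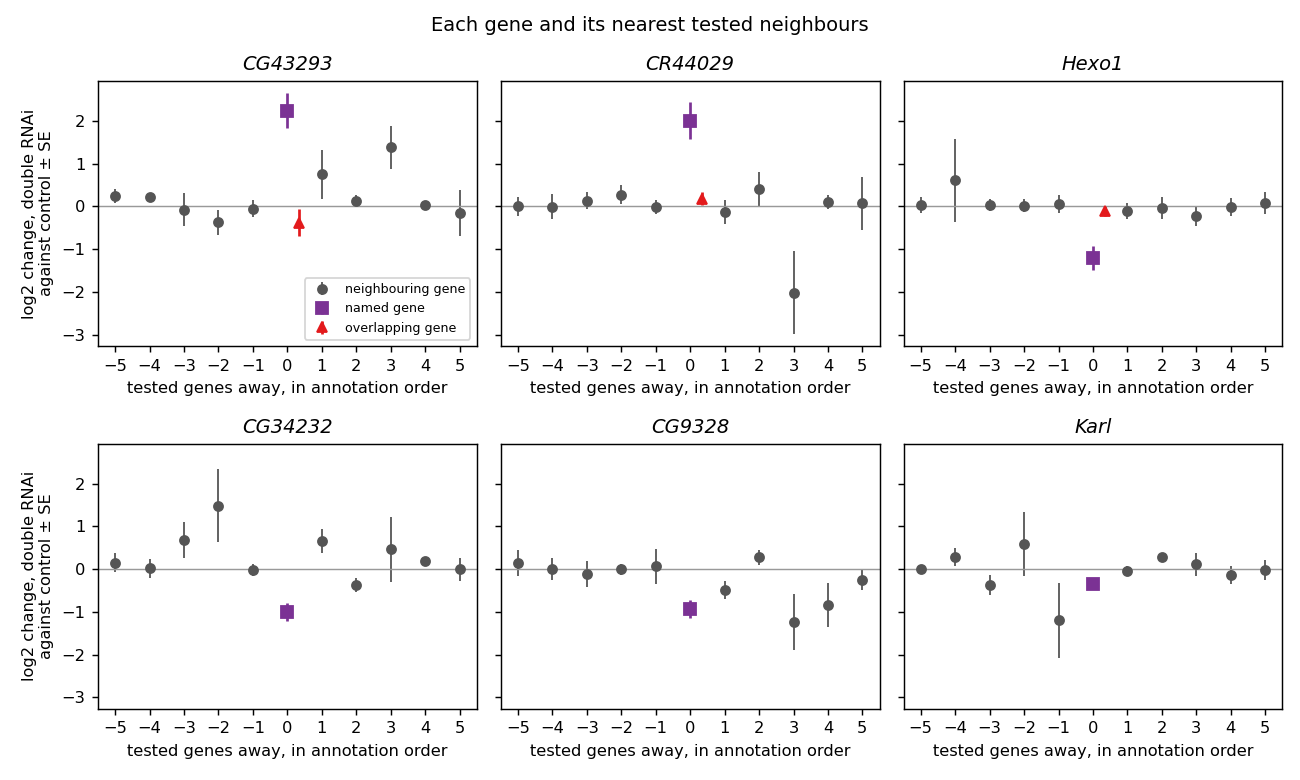
Log2 change in double RNAi against control ± SE (y axis) of each of the 6 genes (square), its overlapping gene where one was tested (triangle) and its 5 nearest tested neighbours on each side (circles), placed by their order in the annotation (x axis). The neighbours range from -2.02 to 1.48, those far from 0 have wide SE bars, and 0 of the 60 passed in edgeR, against 0.271% of all tested genes.

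Lists of related genes were described for Hexo1 and Karl, whose products have a known role, and for row and BEAF-32. Of 21 genes for hexosaminidases and for chitin or N-glycan processing, 14 were tested, and in double RNAi against control 0 passed as higher and 1 as lower, which was Hexo1 itself. Their median log2 change was -0.08, or -0.04 without Hexo1, against -0.0006 over all tested genes, and 6 of the 14 were above 0. The other hexosaminidase genes, named here for their kinship, were Hexo2 and fdl. Hexo2 had 201 CPM in double RNAi and 237 CPM in control (log2 -0.24, SE 0.10, adjusted p = 0.4997 in edgeR). In double RNAi against BEAF-32 RNAi Hexo2 did not pass (log2 -0.39, SE 0.10, adjusted p = 0.0926 in edgeR), while DESeq2 called it there. The gene fdl had 32.3 CPM in double RNAi and 24.4 CPM in control (log2 0.42, SE 0.26, adjusted p = 0.673 in edgeR). Of 17 lipocalin and lipid carrier genes, 9 were tested, and 0 passed as higher and 1 as lower, which was Karl itself. Their median was -0.13, or -0.10 without Karl, and 2 of the 9 were above 0. The fly lipocalin GLaz had 7.00 CPM in double RNAi and 6.31 CPM in control (log2 0.14, SE 0.53), and NLaz had 16 counts in the 12 libraries and was not tested. Of 25 genes of lysosomal proteins, to which Hexo1 was also assigned, 14 were tested with a median of -0.20, or -0.19 without Hexo1. Hexo1 was the only one to pass in double RNAi against control, and the protease gene Cp1 passed in row RNAi against BEAF-32 RNAi (log2 0.33). All 10 genes listed as row or BEAF-32 partners were tested. The list includes row and BEAF-32 themselves, and its median was -0.19, or -0.13 over the other 8. BEAF-32 alone passed in double RNAi against control. Dref, whose product binds motifs that overlap those of BEAF-32, had a log2 change of -0.73 (SE 0.20, adjusted p = 0.103 in edgeR). DESeq2 called Dref in this comparison and in double RNAi against BEAF-32 RNAi.

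The genes whose levels followed each of the 6 most closely over the 12 libraries were found by Pearson's r of log2 CPM among all tested genes. The 12 points share 4 groups and their depth, so r is a description. CG43293 was closest to Dronc, an initiator caspase gene (r = 0.906), Xrp1, a stress-linked transcription factor gene (0.886), and bel, an RNA helicase gene (0.884). CR44029 was closest to ergic53, a cargo receptor gene (r = 0.835), mahj (0.824) and the maltase gene Mal-B2 (0.823). Hexo1 was closest to CG3652 (r = 0.910), CG33056 (0.899) and CG12512 (0.897), and CG9328 to CG3652 as well (0.879), arg, the arginase gene (0.874), and CG18094 (0.872). CG34232 was closest to regucalcin (r = 0.932), Tim17b, a mitochondrial import gene (0.918), and ana1, a centriole gene (0.873). Karl was closest to CG31098 (r = 0.909), CG2129 (0.896) and nolo (0.882). None of the 6 was among the closest 3 of another. Regucalcin averaged 690 CPM in double RNAi and 1301 CPM in control, and Dronc 26.3 CPM in double RNAi and 13.8 CPM in control.

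The spread between libraries differed among the 6 genes, and with it the size of difference that 3 libraries a group could resolve. The biological coefficient of variation estimated by edgeR was 0.269 for CG43293 and 0.290 for CR44029, 0.201 for Hexo1, 0.167 for CG34232, 0.157 for CG9328 and 0.0843 for Karl, against 0.172 as the common value over all tested genes. The 2 genes with the largest changes thus also had the fewest counts in control and the widest spread. For Karl, with at least 1124 counts in every library, the 95% interval of the double RNAi change ran from -0.50 to -0.18.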

How the data were processed

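The authors deposited raw counts per gene for 12 libraries, not normalized. Reads were aligned with STAR to dm3, per the submitters' processing notes, with no version. For the annotation, the counter, strand and the collapsing of molecular identifiers, the setting is not given in the sources. Libraries were made with barcoded oligo-dT primers, pooled and fragmented with Tn5, per the labels' protocols. Columns were tied to samples by name and groups came from the labels. Of 16718 genes, 5628 had 0 counts throughout.

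Tests were run with edgeR 4.0.16 under R 4.3.3: filterByExpr by group (minimum count 10, leaving 7377 genes), TMM (factors 0.962 to 1.05) and a robust quasi-likelihood fit of 4 group means over all 12 libraries, with 8 residual degrees of freedom. The tests and intervals add to these the prior degrees of freedom estimated over all tested genes (median 51.4). P-values were adjusted by Benjamini-Hochberg over the tested genes. The SE is the absolute log2 change over the square root of F, and 95% intervals use the same test. CPM uses TMM-scaled totals of the tested genes; intervals and SDs cover the spread between libraries only.

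The 6 genes and all lists were chosen with earlier results of these data known. Named besides them were row and BEAF-32, tested genes that overlap a member, the nearest tested gene on each side, the 3 genes with the highest r, the 3 other called genes with the largest change, and list members called in any comparison, or else up to 2 with the lowest p. Hexo2, fdl, GLaz, NLaz, Dref, NimC1, atilla, PPO3, PPO1, lz, CG4398, CG10274, sphinx and CG8407 were named outside this rule after their values were seen. Overlaps, order and names come from the annotation BDGP6.54, another build than dm3, so no coordinates are printed; 16576 of 16718 symbols matched. Sequences and promoter motifs were not analysed here. Alternatives were DESeq2 1.42.0 size factors in edgeR, library totals, no filter, the DESeq2 Wald test, limma-voom (limma 3.58.1), a replicate block, only the groups compared, and leaving out each library.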

Additional observations from a re-analysis of the deposited data

How the results depend on the processing

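The log2 changes of the 6 genes in double RNAi against control kept their sign in every alternative, as did those against either single RNAi. For row RNAi against BEAF-32 RNAi, CG34232 (-0.01) turned to 0.0007 with no filter on low counts and ran from -0.15 to 0.10 over the fits that leave out 1 library, and CG9328 (-0.05) ran from -0.30 to 0.10. Over the same fits the double RNAi change minus the sum of the single changes, which 0 of the alternatives called, ran from -0.54 to 0.18 for CR44029, -0.35 to 0.17 for CG34232 and -0.02 to 0.11 for Karl. The number of genes called in double RNAi against row RNAi (0) was 3 with no filter and 2 with only the groups compared. In double RNAi against BEAF-32 RNAi (9) it was 19 with library totals, 23 with no filter and 24 with DESeq2. In row RNAi against control (14) it was 22 with DESeq2, and in row RNAi against BEAF-32 RNAi (25) it was 54 with no filter. The cause was not tested. Leaving out 1 library gave 9 to 23 calls in double RNAi against control, 0 to 2 against row RNAi and 4 to 24 against BEAF-32 RNAi. It gave 4 to 13 in row RNAi against control, 1 to 4 in BEAF-32 RNAi against control, 8 to 21 in row RNAi against BEAF-32 RNAi and 0 for the interaction. Correlations of same-numbered deviations ran from -0.117 to 0.0617, and those of differently numbered ones from -0.111 to 0.0949. No strong pairing of the libraries by the labels' replicate numbers was thus seen, while a weak one could be missed at these counts. With the replicate number as a block, 18 genes were called in double RNAi against control (main 20), Karl no longer among them, and 16 in row RNAi against BEAF-32 RNAi. The low counts of CG43293 and CR44029 in control, 11 to 15 per library, limit the precision of their folds.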
